A study of Malus domestica with 16 samples.

Results

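The farnesene synthesis genes studied here were AFS1 (MDP0000199152), an (E,E)-alpha-farnesene synthase, and FPS2 (MDP0000198736), a farnesyl diphosphate synthase. Both names come from the study, since the array files hold identifiers only. Each gene was read through its sense probe, the probe whose name is the identifier followed by _r, so that 2 of the 59208 sense probes with such names entered. Each of the 2 sense probes had 2 spots on every array. No probe sequence was at hand, so whether other farnesene or farnesyl diphosphate synthase copies hybridize to these probes was not tested.

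Farnesyl diphosphate synthases join small isoprenoid units into farnesyl diphosphate, the precursor of sesquiterpenes and sterols. Alpha-farnesene synthase turns farnesyl diphosphate into alpha-farnesene, a volatile sesquiterpene that collects in the wax of apple peel. Products of its oxidation have long been linked to superficial scald, a browning of the peel that appears after cold storage. AFS1 is known in apple as a gene that depends on ethylene, and 1-methylcyclopropene (1-MCP) is a gas that blocks ethylene receptors.

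Peel RNA came from wild-type 'Granny Smith' apples, harvested at maturity and then kept for 6 months at 0 °C and 95% relative humidity. Sampling took place on removal from storage, before ripening at room temperature, a time point that the study calls presymptomatic. The study nevertheless reports scald at that time point in control fruit and above all in ozone-treated fruit. Control fruit had storage alone, the 1-MCP group was treated for 24 h before storage, the O3 group was stored in air enriched with ozone at 0.3 μl/L, and the 1-MCP+O3 group had both treatments. The labels give the dose of 1-MCP as 1000 ppm, which is far above the dose in the methods of the study. Each of the 4 groups had 2 RNA extracts, replicates A and B, of peel pooled from 7 fruits. The labels do not say whether the extracts of a group came from separate storage rooms or treatments, so p-values measure only the spread between these samples, which may be technical.

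The 8 extracts were hybridized in pairs on 8 two-colour arrays, 2 for each of the comparisons 1-MCP vs Control, O3 vs Control, 1-MCP+O3 vs Control and 1-MCP+O3 vs O3. Replicate A of the first-named group carried the Cy3 dye and its replicate B the Cy5 dye, so dye and replicate cannot be told apart within a comparison. Slide 1 carried both arrays of 1-MCP vs Control and both of O3 vs Control, and slide 2 the remaining 4. Of the 176026 spots of an array, 47.8 to 54.9% were well above background in Cy3 and 36.1 to 43.6% in Cy5. Precision is limited by the small number of arrays. ERS1 (MDP0000242413), an ethylene receptor, was named by the study with these arrays in hand. Its probe gave log2 ratios of -3.09, -3.27 and -1.89 in 1-MCP vs Control, 1-MCP+O3 vs Control and 1-MCP+O3 vs O3. Each was called lower at the threshold defined below, as were 2.37, 1.58 and 1.72% of sense probes in the same order. In O3 vs Control ERS1 also had lower signal, by -1.48 in replicate A and -0.73 in replicate B, and was not called.

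AFS1 was also the target of a primer pair in the RT-qPCR of the study. By its methods, the genes of interest there were chosen because these arrays showed them as changed in 2 or more comparisons. Under loess here the AFS1 sense probe was called in no comparison at the threshold defined below. The reason for this difference from the study was not tested. The 2 primers are shown because they are the sequences at hand that tie the identifier to a transcript. Both run 5′ to 3′, are written in lower case with no part marked, and are 23 bases long with 39.1% G and C (forward) and 20 bases long with 45% G and C (reverse).
AFS1 forward: gatattttagatgaggcgaaagc
AFS1 reverse: gcgttgatttgccatttgac

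The spots of AFS1 were bright in every channel. All 32 readings of its sense probe (2 spots, 2 dyes, 8 arrays) were well above background, with median signals between 4431 and 65535 over local backgrounds of 30 to 86. In Cy3, the 6 readings of the 1-MCP and 1-MCP+O3 groups lay between 4431 and 7672, and the 10 readings of the Control and O3 groups between 31208 and 65535. In Cy5, the same groups lay between 5453 and 17073 and between 11149 and 44597, so that the ranges overlapped. These are signals before any normalization, and the overlap was between 1-MCP replicate B (17073 and 12181) and O3 replicate B (22731 and 11149), each on slide 1.

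Saturation touched AFS1 in Cy3 only. The scanner's ceiling of 65535 was reached by 1 of the 2 spots for Control replicate B on the array against 1-MCP, by 1 of 2 for the same extract on the array against 1-MCP+O3, and by 1 of 2 for O3 replicate B on the array against 1-MCP+O3. The unsaturated spots beside them read 58599, 59107 and 58541. A further hybridization of Control replicate B in Cy3, against O3, read 45854 and 38090 with no saturation. All 3 saturated readings belonged to the second-named group on an array of replicate B. No reading of AFS1 was marked as an outlier, and none was saturated in Cy5.

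The spots of FPS2 were far from the ceiling. Its 32 readings lay between 182 and 1291, all well above background, and none was saturated or marked as an outlier. In Cy3 the 1-MCP and 1-MCP+O3 groups read 319 to 681 and the Control and O3 groups 550 to 1291. In Cy5 the ranges were 182 to 361 and 226 to 592. The signals of AFS1 and FPS2 come from different probes and say nothing of which transcript was more abundant.

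**Figure D1:**
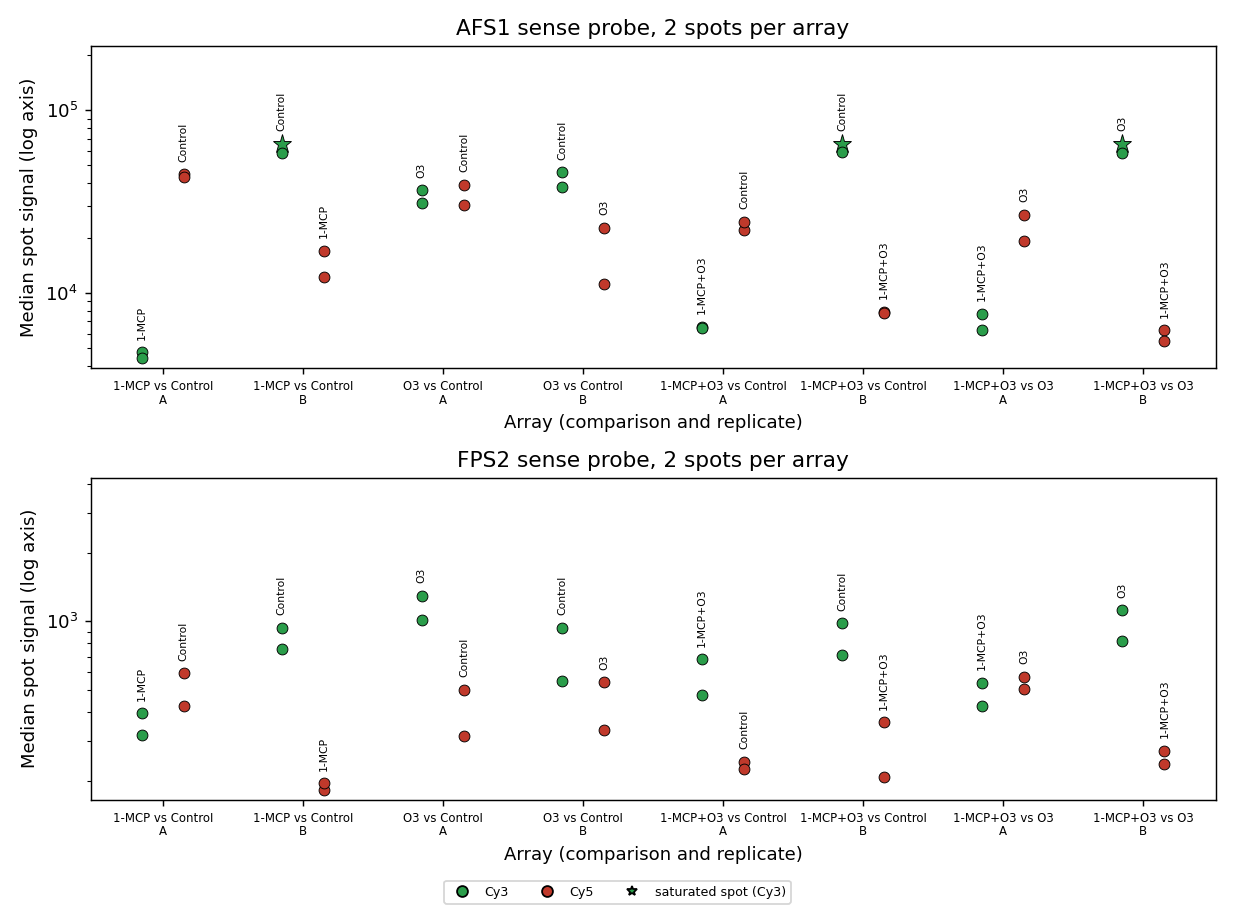
Median spot signal (log axis) of the AFS1 and FPS2 sense probes on the 8 arrays, with the Cy3 (green) and Cy5 (red) reading of each of 2 spots and the group each channel held. Stars mark the 3 saturated Cy3 readings of AFS1 at 65535, and the 1-MCP and 1-MCP+O3 readings of AFS1 lie below the other channel of their own array on all 6 arrays that hold such a group.

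After normalization (loess within each array, then equal average intensities across arrays), the log2 level of AFS1 was high in Control and O3 peel and lower in both groups that had received 1-MCP. In Control the levels were 15.69 in replicate A and 14.93 in replicate B, in O3 peel 15.15 and 14.98, in 1-MCP peel 11.23 and 14.12, and in 1-MCP+O3 peel 11.83 and 13.70. Group means were 15.31 ± 0.54 (SD, n = 2) in Control, 15.06 ± 0.12 in O3, 12.76 ± 1.33 in 1-MCP+O3 and 12.67 ± 2.04 in 1-MCP. The 4 extracts with 1-MCP (11.23 to 14.12) did not overlap the 4 without it (14.93 to 15.69), whereas Control overlapped O3 and 1-MCP overlapped 1-MCP+O3. How many other sense probes separate in this way was not counted, so the separation only describes these extracts. In both 1-MCP groups replicate A was the lower one.

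The single channels show how far 1 extract moved between hybridizations. Control replicate A, always in Cy5, gave an AFS1 level of 15.53, 15.62 and 15.93 against 1-MCP, O3 and 1-MCP+O3, and Control replicate B, always in Cy3, gave 15.12, 14.49 and 15.19. In 1-MCP+O3 the 2 hybridizations were 11.56 and 12.09 for replicate A and 13.88 and 13.52 for replicate B, while each 1-MCP extract was hybridized 1 time. O3 was the group whose extracts were read in both dyes. O3 replicate A read 14.48 in Cy3 on slide 1 and 15.81 in Cy5 on slide 2, a difference of 1.33 for the same RNA, and O3 replicate B read 15.12 in Cy3 on slide 2 and 14.85 in Cy5 on slide 1. Dye, slide and partner on the array cannot be told apart in these differences.

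FPS2 took a different order, with the highest level in O3 peel. Its log2 levels were 10.00 in replicate A and 9.36 in replicate B of O3, 8.91 and 9.12 in Control, 8.39 and 8.62 in 1-MCP+O3, and 7.84 and 7.55 in 1-MCP. The means were 9.68 ± 0.45 (SD, n = 2), 9.02 ± 0.15, 8.51 ± 0.16 and 7.69 ± 0.20 in that order, and no group's 2 extracts overlapped those of its neighbours. The share of sense probes whose groups separate like this was not counted either. The same O3 extracts read 9.91 and 9.36 in Cy3 and 10.09 and 9.36 in Cy5. The repeated channels of each Control extract stayed within 8.75 to 9.03 for replicate A and 9.06 to 9.23 for replicate B.

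**Figure D2:**
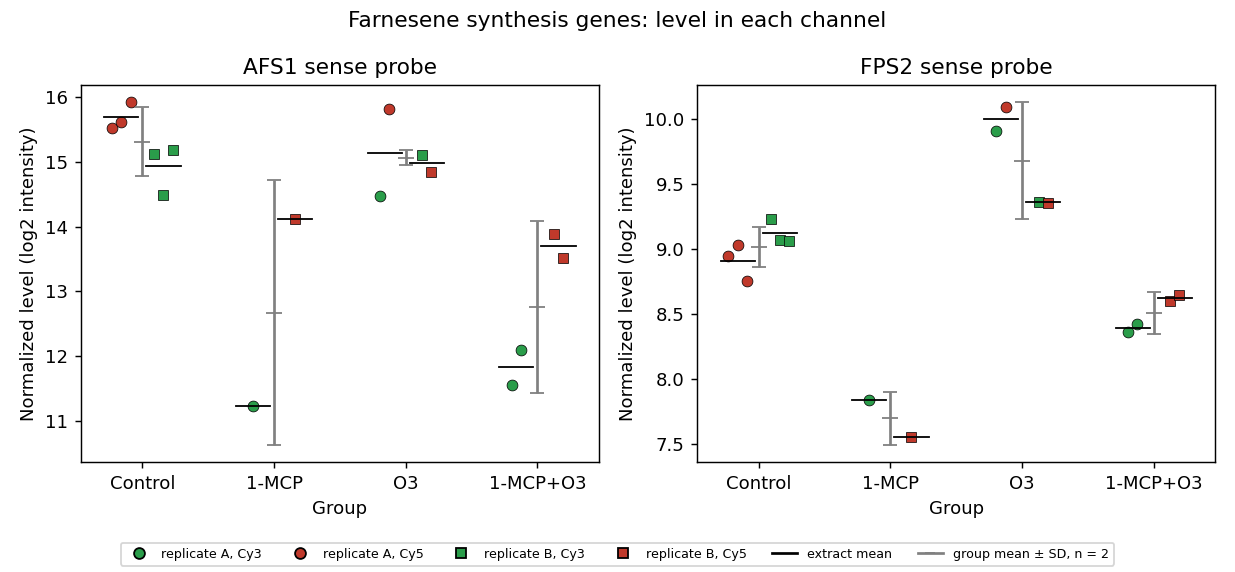
Normalized log2 level of the AFS1 and FPS2 sense probes in each channel, by group, replicate (circles A, squares B) and dye. Black lines are extract means and grey bars the group mean ± SD of 2 extracts. The AFS1 replicates of the 1-MCP groups stand far apart (11.23 and 14.12 in 1-MCP). At these loess levels the 4 groups of FPS2 do not overlap, and the share of sense probes that separate so was not counted.

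A group of 2 extracts against another of 2 allows no exact permutation p under 0.05. Over the 8 extracts, each treatment was permuted within the levels of the other, which gives 36 arrangements and a smallest two-sided p of 0.0556. This test was chosen after the levels had been seen, so a p at this floor only restates the separation of levels given above and adds no evidence. The 1-MCP extracts were read on slide 1 and the 1-MCP+O3 extracts on slide 2. Dye was tied to replicate in every group but O3, so the extracts were not fully exchangeable. For 1-MCP, AFS1 was lower by a log2 difference of -2.47 (5.54-fold) and FPS2 by -1.25 (2.37-fold), and both reached that smallest p of 0.0556 in the exact permutation test. For O3, the difference was -0.08 for AFS1 (exact permutation p = 0.944) and 0.74 for FPS2 (1.67-fold higher, exact permutation p = 0.0556).

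In the comparisons on each array, ratios are log2 of the first-named over the second-named group, and a probe was called where its unadjusted p in limma was under 0.01, the threshold of the study. After Benjamini-Hochberg adjustment 0 sense probes reached 0.05 in limma, and 7231, 5131, 6375 and 5390 sense probes had an unadjusted p under 0.05 in 1-MCP vs Control, O3 vs Control, 1-MCP+O3 vs Control and 1-MCP+O3 vs O3. The study drew attention to both genes with these arrays in hand, so their ratios are a description of these extracts and not independent evidence of a direction.

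In 1-MCP vs Control, which asks what blocking ethylene perception did to stored peel, both genes had lower signal with 1-MCP on both arrays. The FPS2 ratio was -1.11 in replicate A and -1.68 in replicate B, a mean of -1.39 ± 0.41 (SD, n = 2) or 2.63-fold lower. FPS2 fell past the threshold (adjusted p = 0.296 in limma). The AFS1 ratio was -4.30 in replicate A and -0.999 in replicate B, a mean of -2.65 ± 2.33 or 6.27-fold lower. In replicate B 1 of the 2 Control spots was at the ceiling, which limits that ratio and the fold, and without saturated spots the mean was -2.73. AFS1 did not pass (adjusted p = 0.724), and the SD between its 2 arrays was nearly as large as the mean. Of all sense probes, 2.37% were called lower in this comparison.

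In O3 vs Control, which asks what ozone alone did, neither gene was called, against 2.45% of sense probes called in either direction. For AFS1 the ratio was -1.14 in replicate A and 0.36 in replicate B (mean -0.39 ± 1.06), so the arrays disagreed in sign. For FPS2 it was 0.88 and 0.29, a mean of 0.58 ± 0.42 or 1.50-fold higher (adjusted p = 0.911). With median centring in place of loess, the FPS2 ratios were 1.63 and -0.71, so that the direction in replicate B depended on the normalization.

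With both treatments, in 1-MCP+O3 vs Control, AFS1 again had lower signal on both arrays, by -4.37 and -1.31. The mean was -2.84 ± 2.17 (SD, n = 2) or 7.15-fold lower (adjusted p = 0.736), with 1 of 2 Control spots at the ceiling in replicate B, and -2.81 without saturated spots. FPS2 gave -0.39 and -0.47, a mean of -0.43 ± 0.05 or 1.35-fold lower (adjusted p = 0.600). With median centring the FPS2 ratios were 0.99 and -1.49, so that the direction in replicate A depended on the normalization. Neither was called, and 1.58% of sense probes were called lower. The 1-MCP+O3 and 1-MCP extracts met on no array, so they were set against each other through their log2 levels, a contrast added after the levels had been seen. All 1-MCP channels were on slide 1 and all 1-MCP+O3 channels on slide 2, so ozone and slide cannot be told apart in it. FPS2 was higher in 1-MCP+O3 (8.39 and 8.62) than in 1-MCP (7.84 and 7.55) by a log2 difference of 0.81 with a standard error of 0.23, or 1.76-fold, and was not called (adjusted p = 0.468 in limma). For AFS1 the difference was 0.09 with a standard error of 1.05 (adjusted p = 0.990), and it was not called either, against 2.86% of sense probes called in either direction.

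The comparison 1-MCP+O3 vs O3 asks what 1-MCP did in ozone storage. There the AFS1 ratio was -3.72 in replicate A and -1.59 in replicate B. The mean of -2.66 ± 1.50 was 6.31-fold lower (adjusted p = 0.759), with 1 of 2 O3 spots at the ceiling in replicate B, and -2.67 without saturated spots. FPS2 gave -1.67 and -0.72, a mean of -1.20 ± 0.67 or 2.29-fold lower (adjusted p = 0.773). Neither was called, and 1.72% of sense probes were called lower.

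The interaction, the log2 ratio of 1-MCP+O3 vs O3 minus that of 1-MCP vs Control, compares the effect of 1-MCP with and without ozone on 4 arrays that share no extract. It was -0.01 for AFS1 with a standard error of 1.46 in limma and 0.20 for FPS2 with a standard error of 0.43. Within replicates the AFS1 value was 0.58 in A and -0.60 in B, and the FPS2 value -0.57 in A and 0.96 in B. Neither was called, as against 0.441% of sense probes called in either direction. With standard errors of this size on 4 arrays, an interaction of the order of the effect itself could not have been called for either gene. Slide and comparison cannot be told apart in this term.

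**Figure D3:**
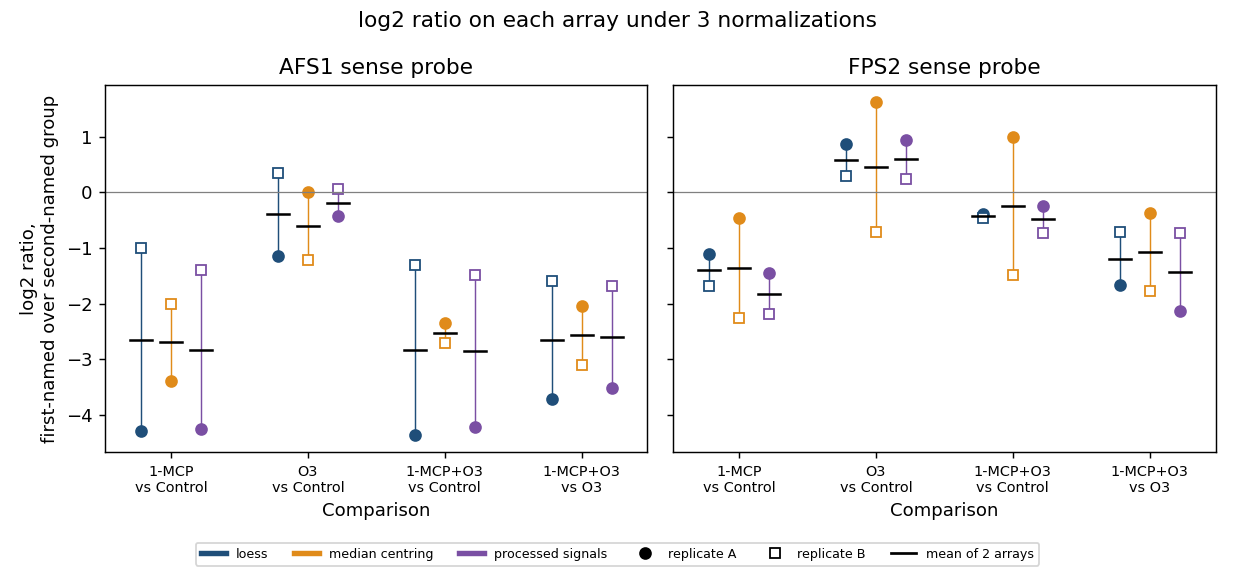
The log2 ratio of AFS1 and FPS2 on each array in the 4 comparisons, under loess, median centring and the scanner software's processed signals. Circles are replicate A, open squares replicate B, and black bars the mean of 2 arrays. The AFS1 means stay between -2.86 and -2.53 in the 3 comparisons with 1-MCP, while the gap between its replicates is widest under loess in 1-MCP vs Control.

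For AFS1 the normalization changed the call and hardly the mean. Its spots lay at the bright end of every array, where 203 to 1297 of the 133709 probes had a higher mean spot intensity. Loess moved its turned ratio relative to centring each array on its median. The shift was -0.91 to -2.03 on the arrays of replicate A and 1.01 to 1.57 on those of replicate B. For FPS2, far from the bright end, it was -0.65 to -1.38 and 0.58 to 1.05, with the same signs. With median centring the 1-MCP vs Control ratios were -3.38 and -2.01 (mean -2.70 ± 0.97), the 1-MCP+O3 vs Control ratios -2.34 and -2.71 (mean -2.53 ± 0.26) and the 1-MCP+O3 vs O3 ratios -2.04 and -3.09 (mean -2.57 ± 0.74). AFS1 was then called lower in all 3, where 0.687, 0.211 and 0.488% of sense probes were called lower in the same order. The lowest adjusted p of these was 0.975. Which of the 2 normalizations lies closer to the RNA at the bright end was not tested.

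The processed signals of the scanner software gave AFS1 means of -2.83 ± 2.02, -2.86 ± 1.93 and -2.60 ± 1.30, with the replicates nearly as far apart as under loess. It was called lower in all 3 comparisons with 1-MCP (adjusted p = 4.5e-06, 0.0016 and 0.0107), where 3.76, 1.77 and 2.49% of sense probes were called lower. In these fits limma estimated a single variance for all probes (133686 to 133700 total degrees of freedom, against 2.57 to 2.82 under loess), so that the spread of AFS1 itself did not enter its p. Leaving out the saturated spots gave no call of AFS1 in these comparisons.

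FPS2 went the other way. With median centring its 1-MCP vs Control ratios were -0.45 and -2.26 (mean -1.36 ± 1.28), and the call was lost. On the processed signals they were -1.45 and -2.19 (mean -1.82 ± 0.52), and it was called. The median-centred ratios in 1-MCP+O3 vs O3 were -0.36 and -1.77.

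Probes of the opposite strand carry the same identifiers without _r and are called antisense here, with 1 spot each. The antisense probe of AFS1 was well above background in all 16 readings, at signals between 191 and 3280, and was neither saturated nor marked as an outlier. It lay lower with 1-MCP, at log2 levels of 7.59 and 8.59 in 1-MCP (replicates A and B) and 7.88 and 8.26 in 1-MCP+O3, against 10.27 and 10.76 in Control and 10.50 and 10.22 in O3. Its ratio in 1-MCP vs Control was -2.98 in replicate A and -2.13 in replicate B, a mean of -2.55 ± 0.60 (SD, n = 2), and it fell past the threshold (adjusted p = 0.236). For 1-MCP+O3 vs Control the ratios of -2.52 and -2.65 had a mean of -2.58 ± 0.09 (adjusted p = 0.337).

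For 1-MCP+O3 vs O3 the AFS1 antisense ratios of -2.68 and -2.28 had a mean of -2.48 ± 0.28 (adjusted p = 0.422). All 3 were called lower, as were 0.719, 0.474 and 0.425% of the antisense probes in the same order. With median centring the means were -2.55, -2.40 and -2.37 and the calls in both comparisons with 1-MCP+O3 were lost, and in the joint fit of 8 median-centred arrays without a replicate block the call in 1-MCP vs Control was lost too. In O3 vs Control the ratios were 0.25 and -0.69 (mean -0.22 ± 0.67), and the interaction was 0.07, neither called. The sense and antisense means of AFS1 thus lay at -2.65 and -2.55, -2.84 and -2.58, and -2.66 and -2.48 in the 3 comparisons with 1-MCP. Under loess the antisense replicates were closer together than the sense replicates in all 3. With median centring the antisense SDs were 0.41, 1.93 and 1.43 against sense SDs of 0.97, 0.26 and 0.74, so that the sense replicates were the closer ones in both comparisons with 1-MCP+O3. What the antisense probe of AFS1 hybridized to was not tested.

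The antisense probe of FPS2 was dim, with signals between 75 and 141.5 and 13 of 16 readings well above background. Its mean ratios were -0.35 ± 0.25 in 1-MCP vs Control, 0.22 ± 0.24 in O3 vs Control, 0.00 ± 0.21 in 1-MCP+O3 vs Control and -0.29 ± 0.29 in 1-MCP+O3 vs O3, with none called under loess. On the processed signals the means were -1.40 ± 1.13 in 1-MCP vs Control, which was called (adjusted p = 0.136), and -1.57 ± 1.37 in 1-MCP+O3 vs O3, which was not (adjusted p = 0.542). In the fit on extract levels without a replicate block the difference of -0.43 between 1-MCP+O3 and O3 was called (adjusted p = 0.188). The offset of 50 added in the background correction draws ratios of such dim spots toward 0.

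**Figure D4:**
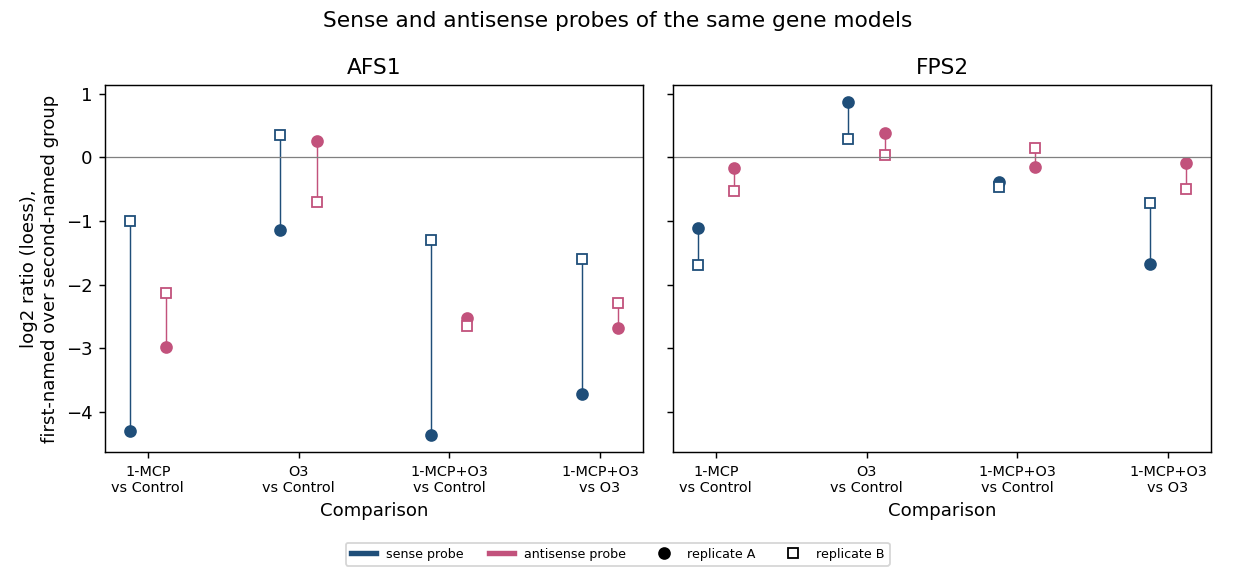
The log2 ratio under loess of the sense and antisense probes of AFS1 and FPS2 on each array (circles replicate A, open squares replicate B). In the 3 comparisons with 1-MCP the 6 antisense ratios of AFS1 lie between -2.98 and -2.13 and the 6 sense ratios between -4.37 and -0.999.

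Over the 8 extracts, the log2 levels of AFS1 and FPS2 had a Pearson r of 0.64, given as a description, since the extracts share arrays and dyes. AFS1 and its antisense probe had r = 0.90, and FPS2 and its antisense probe r = 0.97. Among 6683 other sense probes that were well above background in at least 8 of 16 channels and had an SD of at least 0.5 over the extracts, the 3 most like AFS1 were MDP0000920203 (r = 0.99), MDP0000796379 (r = 0.98) and MDP0000196593 (r = 0.98). Their mean log2 ratios in 1-MCP vs Control were -1.09, -1.26 and -2.98. The 3 most like FPS2 were MDP0000147266, MDP0000175048 and MDP0000273855 (r = 0.99 for each), with ratios of -0.99, -2.15 and -2.97 in 1-MCP vs Control and 0.61, 1.12 and 1.28 in O3 vs Control. All 6 were picked for following AFS1 or FPS2 over these same 8 extracts, so the direction of their ratios largely follows from that choice. The tables used here give none of these 6 a name. AFS1 ranked 2115 in likeness to FPS2, and FPS2 ranked 1325 in likeness to AFS1.

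Other isoprenoid genes were taken by keyword from the 1483 rows of the study's list of called probes that were used here, which gave 9 genes. Since those rows had already been called on these arrays, neither the number of calls among them nor their direction is independent evidence, and the shares of all sense probes are given beside the counts with nothing read from them. They were 3 geranylgeranyl reductase models, the carotenoid genes PSY (phytoene synthase, MDP0000261447), ZDS (zeta-carotene desaturase, MDP0000255025) and LUT2 (lycopene epsilon cyclase, MDP0000158790), the prenyltransferase ABC4 (MDP0000156263) and 2 models of the terpene synthase family (MDP0000311361 and MDP0000316067). Most of these names belong to plastid isoprenoids such as chlorophyll side chains and carotenoids, and none to the mevalonate pathway.

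In 1-MCP vs Control all 9 had higher means, with a median log2 ratio of 1.51 against 0.01 over all sense probes. AFS1 and FPS2 were not among the 9. The choice of rows may fix this direction, so no contrast with AFS1 and FPS2 is drawn. The direction of isoprenoid genes outside the rows used was not tested. Of the 9, 7 were called higher and 0 lower, against 2.26% of sense probes called higher. ABC4 rose by 3.63 and PSY by 1.51, and the terpene synthase model MDP0000311361 rose by 1.68. ZDS (0.49) and the terpene synthase model MDP0000316067 (0.81) did not pass. In O3 vs Control the median was 0.01 and ABC4 (0.78) was the 1 of 9 called higher, against 1.71% of sense probes.

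In 1-MCP+O3 vs Control, 3 of the 9 (ABC4 and the geranylgeranyl reductase models MDP0000159873 and MDP0000302490) were called higher and 0 lower, with a median of 1.09, against 2.05% of sense probes called higher. For 1-MCP+O3 vs O3, ABC4, PSY and MDP0000159873 were called higher and 0 lower, with a median of 0.93, against 1.38%. ZDS was the 1 gene of the list with a mean below 0 in both (-0.31 and -0.29, neither called).

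The 5 reference genes of the RT-qPCR, which the study picked for showing no call on these arrays, had mean log2 ratios between -0.47 and 0.37 over the 4 comparisons and none called. Their replicates split in both directions. MDP0000645828 had ratios of 0.90 in replicate A and -0.94 in replicate B of 1-MCP vs Control and of 1.69 and -1.52 in 1-MCP+O3 vs O3. MDP0000271281 went the other way, with -1.04 and 0.11 in 1-MCP vs Control and -0.80 and 0.19 in 1-MCP+O3 vs O3, as did MDP0000146514, with -0.09 and 0.44 and with -0.77 and 0.40. Replicate A had the higher ratio for 3 of the 5 genes in 1-MCP vs Control, 1 in O3 vs Control, 3 in 1-MCP+O3 vs Control and 2 in 1-MCP+O3 vs O3. Under loess AFS1 was the more negative in replicate A, where the group with 1-MCP carried Cy3, in all 3 comparisons with 1-MCP. This is the direction of MDP0000271281 and MDP0000146514 and opposite to that of MDP0000645828 and MDP0000217860. MDP0000251161 had the opposite direction to AFS1 in 1-MCP vs Control and 1-MCP+O3 vs Control and the same one in 1-MCP+O3 vs O3. The part of the dye in these gaps was not tested.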

How the data were processed

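Spot values were read by the authors from scanned images with Agilent Feature Extraction 11.5.1.1. The deposited median intensity of a spot and of its local background carried no background subtraction, and the deposited processed intensity had been background-subtracted and dye-normalized by that software, per the file headers. The deposited flag columns (other values of 0 or 1) mark saturation, outliers and spots well above background. The submitters' processing notes name limma.

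Median signals were background-corrected by normexp (offset 50) and normalized by loess within arrays. Outlier spots were left out, spots of a probe were averaged and every ratio was set as first-named over second-named group. R 4.3.3, limma 3.58.1 and the data.table package (1.17.8) were used. Each comparison was fitted by lmFit and eBayes on 2 arrays over all 133709 probes, called at an unadjusted p of 0.01, with Benjamini-Hochberg adjustment over all probes. Levels were made comparable by Aquantile and averaged per extract. The fit was also run on simulated log2 ratios with independent errors. These held no dye order, loess step or saturation, so the run does not check those features.

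The plan named the 2 genes, their antisense probes, the 3 sense probes nearest to each in level pattern, 5 reference genes, ERS1 and a keyword list. The members and lists were chosen with earlier results of these data known. Metabolite, protein and RT-qPCR data were not analysed here.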

Additional observations from a re-analysis of the deposited data

How the results depend on the processing

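Over the 2 sense probes, the 4 comparisons, the interaction and the contrast of 1-MCP+O3 with 1-MCP, 128 of the alternative values kept direction and side of the threshold, 25 newly passed it, 3 no longer passed it and 12 changed sign. The joint fits of 8 arrays on median-centred ratios, the crossed block and the contrast of 1-MCP+O3 with 1-MCP were added after the data had been seen. The cause of the changes below was not tested.

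With the processed signals AFS1 passed at -2.83, -2.86 and -2.60 in 1-MCP vs Control, 1-MCP+O3 vs Control and 1-MCP+O3 vs O3, and with median centring at -2.70, -2.53 and -2.57. With an intensity trend and robust variance in limma the loess means of -2.65, -2.84 and -2.66 passed too (adjusted p = 0.0742, 2.0e-05 and 0.352), the second with 133700 total degrees of freedom. FPS2 in 1-MCP vs Control no longer passed with median centring (-1.36, also in the joint fit without a replicate block). FPS2 in 1-MCP+O3 vs O3 passed in the joint fit without a block (-1.20, adjusted p = 0.196) and in the fit on extract levels (-1.17, adjusted p = 0.101). Median centring with the joint fit also let AFS1 pass, at the same -2.70, -2.53 and -2.57, without the block and with it, and with the block FPS2 in 1-MCP+O3 vs O3 (-1.07).

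The replicate letters name 2 extracts in each group and the labels give no shared fruit lot or day for a letter. The A minus B differences of groups correlated between -0.51 (Control and 1-MCP) and 0.64 (1-MCP and 1-MCP+O3) over 59205 sense probes. Within a letter, Control and 1-MCP carried opposite dyes and 1-MCP and 1-MCP+O3 the same dye. With the replicate block in the joint fit, AFS1 passed at -2.65, -2.84 and -2.66 (adjusted p = 0.0183, 0.0198 and 0.0227) and FPS2 at -1.20 in 1-MCP+O3 vs O3. The block also takes up the dye. With the replicate block on extract levels FPS2 passed at -1.17, as it did with the crossed pairing, and AFS1 did not pass.

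The AFS1 interaction changed sign to 0.23 with the processed signals, 0.13 with median centring, 0.0647 without saturated spots and 0.34 on extract levels with any block or none. The AFS1 antisense interaction became -0.0892 and that of FPS2 -0.17 with the processed signals, and the latter -0.0429 on extract levels. The AFS1 antisense calls in 1-MCP+O3 vs Control and 1-MCP+O3 vs O3 were lost with median centring (-2.40 and -2.37), and those 2 and the call in 1-MCP vs Control (-2.55) in the median-centred joint fit without a block. On extract levels FPS2 antisense passed in 1-MCP+O3 vs O3 (-0.43) with any block or none and, with the crossed pairing, in 1-MCP vs Control (-0.38).

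Leaving out 1 replicate, AFS1 ran from -4.30 to -0.999 in 1-MCP vs Control, from -4.37 to -1.31 in 1-MCP+O3 vs Control, from -3.72 to -1.59 in 1-MCP+O3 vs O3 and from -1.14 to 0.36 in O3 vs Control. FPS2 ran from -1.68 to -1.11 in 1-MCP vs Control, where the call was lost without replicate B, and from -1.67 to -0.72 in 1-MCP+O3 vs O3, where it passed without replicate B. The interactions ran from -0.60 to 0.58 (AFS1), -0.57 to 0.96 (FPS2) and -0.16 to 0.30 (AFS1 antisense). AFS1 antisense ran from -0.69 to 0.25 in O3 vs Control and FPS2 antisense from -0.15 to 0.14 in 1-MCP+O3 vs Control. In 1-MCP+O3 vs 1-MCP, AFS1 ran from -0.42 to 0.60 and FPS2 from 0.55 to 1.07, and FPS2 was 0.87 with median centring, none passing. The array or extract left alone in such a fit was assumed to vary like the others.

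Over all alternatives 653 to 6149 sense probes were called in 1-MCP vs Control (2744 under loess), 76 to 2871 in O3 vs Control (1449), 416 to 6109 in 1-MCP+O3 vs Control (2147), 419 to 5733 in 1-MCP+O3 vs O3 (1831) and 9 to 947 for the interaction (261). The share of calls that were lower moved from 30.2 to 92.1% in O3 vs Control, from 43.5 to 30% in 1-MCP+O3 vs Control, from 55.5 to 69% in 1-MCP+O3 vs O3 and from 45.2 to 66.7% for the interaction when loess was replaced by median centring.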
